A study of Mus musculus with 33 samples.

Results

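Chromatin bound by Mef2c was compared with input chromatin in mouse cardiac fibroblasts that had received Gata4, Mef2c and Tbx5 together. The members are the 4 Mef2c immunoprecipitation libraries of these cells, which carry the replicate numbers 2 to 5, and their 6 input libraries. They make up 10 of the 33 libraries of the series and were chosen by their labels alone. The cells were an immortalised neonatal cardiac fibroblast line that expresses T antigen and carries an alpha-MHC-GFP reporter on a Cd-1 background. Both groups were infected with retroviruses for the 3 factors, kept with the Tgfβ inhibitor sb431542 and the Wnt inhibitor xav939, and harvested unsorted at day 2. The 2 groups therefore share every allele, factor and inhibitor, and differ in the immunoprecipitation with a rabbit monoclonal antibody to Mef2c. Because the cells were not sorted, each library mixes cells that took up different combinations of the viruses, and because the line was immortalised it is a limited model of primary fibroblasts. For comparison, 3 Mef2c libraries from cells of the same line given Mef2c alone, and 6 Gata4 and 4 Tbx5 libraries from the cells with all 3 factors, were each set against 3 inputs of single-factor cells (1 input each from cells given Gata4, Mef2c or Tbx5).

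Mef2c belongs to the myocyte enhancer factor 2 family, whose members bind AT-rich DNA through a MADS-box domain and an adjoining MEF2 domain. In the heart it is needed for development of the looping heart tube and the right ventricle, and it activates genes of the contractile apparatus together with partners that include Gata factors. Class IIa histone deacetylases bind MEF2 proteins and hold their targets silent until they are released. Together with Gata4, a zinc finger factor, and Tbx5, a T-box factor, it forms the combination used to turn fibroblasts toward a cardiomyocyte-like state.

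Reads were counted over 30815 regions of the mm9 build, from 201 to 1484 bp wide with a median of 234 bp. The Mef2c libraries held 383071, 1191612, 1719411 and 2377616 counts for replicates 2, 3, 4 and 5. The 6 inputs were shallower, with 165517 to 301678 counts each. No difference beyond sampling noise was detected between inputs 1 and 3 (chi-square p = 0.467) or among inputs 2, 4 and 5 (p from 0.272 to 0.949), so each set was summed and counted as 1 sample. All 4 Mef2c libraries differed from each other beyond that noise, which left 4 Mef2c samples against 3 input samples. The labels call the libraries biological replicates but do not name separate cultures or animals, so the p-values measure the spread between these samples, which may be technical.

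Mef2c gave a strong and widespread pattern over these regions. Of 28307 regions deep enough to test, 61.2% differed from input: 9672 were higher in Mef2c than in input, which is 34.2% of them, and 7645 were lower, which is 27.0%. The median log2 fold change was 1.91 over the higher regions (interquartile range 1.49 to 2.40) and -1.62 over the lower ones (-1.91 to -1.35). In CPM, read counts scaled to a common library total and then by TMM, a method that sets a common level for the bulk of regions, the median higher region had 84.0 in Mef2c and 22.1 in input. The median lower region had 9.27 in Mef2c and 25.1 in input. Calls are at an adjusted p under 0.05 in edgeR's quasi-likelihood test with Benjamini-Hochberg adjustment over all regions tested.

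With TMM scaling the higher side reached further than the lower one. Library totals moved the median log2 fold change by -0.92, so this reach depends on the scaling. A log2 fold change over 2 was found at 4274 of the higher regions, over 3 at 831 and over 4 at 38, with the largest at 5.44. On the lower side 1446 regions were under -2, 26 under -3 and none under -4, with the lowest at -3.64. All 4 Mef2c samples stood above all 3 inputs at 8951 regions, which is 31.6% of those tested, and below them at 6038, or 21.3%. Among the called regions the groups did not overlap at 8600 higher regions (88.9%) and 4874 lower regions (63.8%), so the lower calls more often had a Mef2c sample within the range of the inputs. Input was never at 0 in every sample of a higher region, so each fold rests on counted reads in both groups.

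**Figure D1:**
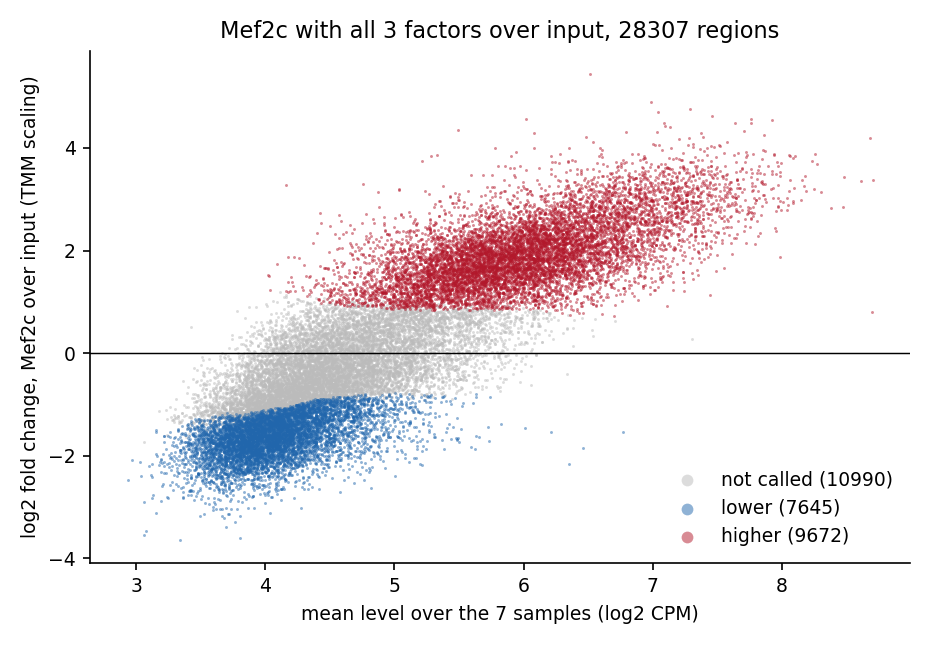
Each point is 1 of 28307 tested regions, with its mean level over the 7 samples (log2 CPM) on the x axis. The y axis gives its log2 fold change of Mef2c over input with TMM scaling. Higher regions (red, 9672) spread up to 5.44 and lie toward high levels, while lower regions (blue, 7645) end at -3.64 and lie toward low levels.

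The split between higher and lower depends on where the level of no change is set. With library totals in place of TMM the median log2 fold change over all tested regions moved by -0.92, from -0.13 to -1.05, and 5832 regions were higher against 14515 lower. The share of calls that were higher was then 28.7%, against 55.9% with TMM. DESeq2 gave 9016 higher and 5616 lower regions, a higher share of 61.6%. A region kept its call in the same direction under all of 12 alternatives (library totals, a scaling on regions low for Mef2c alone, DESeq2, no filter, the chromosome Y sets described further on as a block, and each of the 7 samples left out) at 5832 of the higher regions (60.3%) and 2390 of the lower ones (31.3%).

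Among the called regions above the median level whose groups did not overlap, the 10 of largest rise were 203 to 316 bp wide. At chr7:50601943-50602172 the 4 Mef2c samples had 115, 196, 134 and 141 CPM in the order of their replicate numbers. The inputs had 3.09 CPM (libraries 1 and 3), 3.02 CPM (libraries 2, 4 and 5) and 4.51 CPM (library 6). Every Mef2c sample was far above every input, and the log2 fold change was 5.44 ± 0.48 (SE, n = 4 and 3, edgeR adjusted p = 1.03e-09). The inputs there rest on 2, 3 and 1 reads, so counting error is large on the low side.

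At chr1:14350121-14350323 the Mef2c samples had 129, 224, 285 and 180 CPM and the inputs 6.18, 8.05 and 4.51 CPM. The lowest Mef2c value was again that of library 2, the shallowest, and the groups were far apart (log2 fold change 4.89 ± 0.42, edgeR adjusted p = 6.36e-10). The nearest other region lay 124350 bp away, which makes this an isolated site in the table. At chr7:66099523-66099725 the Mef2c samples had 264, 314, 262 and 192 CPM, against 12.4, 10.1 and 0 CPM in input (log2 fold change 4.76 ± 0.40).

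Closely similar values were found at 2 more regions of chromosome 7. At chr7:56103423-56103625 the Mef2c samples had 203, 243, 227 and 183 CPM and the inputs 7.72, 8.05 and 9.03 CPM (log2 fold change 4.70 ± 0.37). At chr7:140922621-140922864 they had 314, 374, 248 and 225 CPM against 13.9, 9.05 and 13.5 CPM (4.63 ± 0.35). In both the 4 Mef2c samples lay close together and the inputs were lower by more than an order of magnitude. The other 5 regions of this group of 10, on chromosomes X, 4 and 7, had log2 fold changes from 4.48 to 4.57, with 52.9 to 517 CPM in the Mef2c samples and 0 to 36.1 CPM in the inputs. Of the 10, 5 lay on chromosome 7 and 2 on chromosome X, and 4 were in the narrowest width class, 201 to 203 bp. Among all 28307 tested regions, 1143 lay on chromosome 7, 418 on chromosome X and 7821 in that width class. Genes near these regions are not named, since no mm9 annotation was used here.

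A second group is the 5 higher regions with the most Mef2c reads, which were wider. At chr16:43456604-43457112, 509 bp wide, the Mef2c samples had 767, 812, 665 and 489 CPM. The inputs had 34.0, 40.2 and 36.1 CPM, so all 4 samples stood more than 10 times above each input there (mean 683 ± 143 CPM, SD, n = 4, against 36.8 ± 3.18, n = 3, and log2 fold change 4.20 ± 0.26). At chr3:151805873-151806601 the values were 808, 736, 669 and 474 CPM for Mef2c and 57.1, 59.3 and 85.7 CPM for input (3.37 ± 0.25), a smaller ratio with the groups still far apart.

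At chr9:48794690-48795761, the widest of the 5 with 1072 bp, the Mef2c samples had 505, 803, 653 and 551 CPM and the inputs 63.3, 63.4 and 54.2 CPM (log2 fold change 3.36 ± 0.24). Here Mef2c library 3 was the highest and library 2 the lowest. At chr2:90805626-90806167 the values were 526, 684, 616 and 468 CPM against 40.2, 56.3 and 67.7 CPM (3.43 ± 0.26). At chr15:73166660-73167421 they were 373, 642, 636 and 557 CPM against 58.7, 99.6 and 67.7 CPM (2.85 ± 0.26). Library 2 stood below the other 3 Mef2c samples at this last region. All 4 were above each input at all 5 regions, as the rule that chose them required.

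The named lower regions are the 10 of largest fall among 387 called regions above the median level whose groups did not overlap, so the 26 regions under -3 are not among them. At chr5:107637834-107638271 the Mef2c samples had 14.7, 9.02, 5.24 and 8.54 CPM, from 5 to 15 reads each. The inputs had 44.8, 60.3 and 54.2 CPM, so the groups stood well apart (log2 fold change -2.64 ± 0.38, edgeR adjusted p = 2.06e-06). At chr11:101791987-101792332 the Mef2c samples had 11.7, 6.76, 9.60 and 9.11 CPM against 47.9, 44.2 and 67.7 CPM in input (-2.48 ± 0.37).

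At chr13:60056038-60056938 the Mef2c samples had 11.7, 13.5, 6.98 and 13.1 CPM and the inputs 47.9, 53.3 and 90.3 CPM (log2 fold change -2.40 ± 0.38). All 4 Mef2c samples lay near 10 CPM, and the highest input was library 6, the shallowest. The other 7 lower regions of this group had log2 fold changes from -2.35 to -2.24, with 3.49 to 32.3 CPM for Mef2c and 31.2 to 99.3 CPM for input. None of the 10 was in the narrowest width class, which holds 7821 of the 28307 tested regions. That holds for these 10 only, which had to lie above the median level. Of all 7645 lower regions, 3577 were in the narrowest class.

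**Figure D2:**
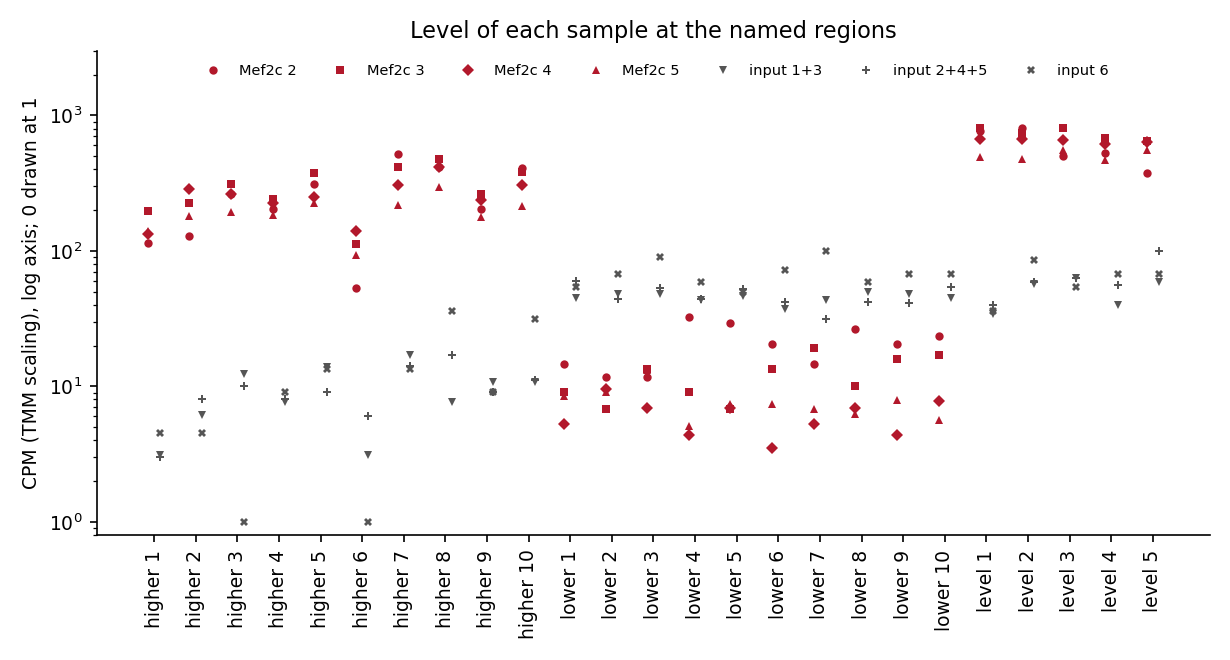
CPM with TMM scaling on a log axis for each of the 4 Mef2c samples (red) and 3 input samples (grey) at the 10 higher regions of largest fold change, the 10 lower ones and the 5 higher regions of highest level, with values of 0 drawn at 1. At each of the 25 regions the Mef2c samples lie on one side of all inputs, which was a condition of the choice. The 5 of highest level range from 373 to 812 CPM in Mef2c.

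The 4 Mef2c libraries shared the pattern but not its strength. Across the tested regions the correlation of log2 CPM was 0.74 to 0.81 between library 2 and the other 3, and 0.89 to 0.93 among libraries 3, 4 and 5, as a description across regions that are not independent. Over the higher regions library 4 had the highest value of the 4 at 53.6% and library 2 the lowest at 71.4%. At regions that were higher for Mef2c alone, the median log2 value over the mean of the inputs was 1.25 in library 2, 1.89 in library 3, 2.27 in library 4 and 1.98 in library 5. Library 2 was also the shallowest, and the part of depth in its lower values was not tested. Without library 2 the counts were 10099 higher and 9785 lower regions. The highest and lowest Mef2c sample of a higher region differed by a median of 1.04 on the log2 scale, and by more than 2 at 432 of them (4.47%).

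In 3 regions chosen for high level among the most variable called ones, library 2 or library 4 parted from the rest. At chr18:39859731-39860060 the Mef2c samples had 23.5, 128, 214 and 143 CPM, against 17.0, 33.2 and 31.6 CPM in input. Library 2 was within the range of the inputs there, while the other 3 were above it (log2 fold change 2.28 ± 0.47). At chr7:125393995-125394392 the values were 17.6, 37.2, 202 and 64.3 CPM against 21.6, 29.2 and 31.6 CPM (1.63 ± 0.54), so library 4 was the highest by far and library 2 lay below every input. The reverse was seen at chr9:94285355-94285745, with 67.5, 81.2, 6.98 and 116 CPM against 30.9, 28.2 and 22.6 CPM (1.29 ± 0.53), where library 4 was below every input and the other 3 above. The calls at chr7:125393995-125394392 and chr9:94285355-94285745 were lost under 9 and 12 of 23 alternatives.

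A further measure needs no scaling between samples, the share of a sample's own counts that fell in the 6700 regions called higher for Mef2c alone. It was 43.1%, 53.9%, 57.5% and 50.8% in the Mef2c samples and 21.9%, 22.0% and 22.5% in the inputs. Every Mef2c sample was above every input, with means of 51.3% ± 6.15 (SD, n = 4) and 22.2% ± 0.296 (SD, n = 3). The exact two-sided permutation test gave p = 0.0571, the smallest that 4 against 3 samples allow, and the same after Benjamini-Hochberg adjustment over the 3 shares compared. In the 500 regions of largest fold for Mef2c alone the means were 5.80% in Mef2c and 1.38% in input.

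The 2 other shares behaved likewise. The richest 10% of regions in each sample held 36.9%, 44.5%, 44.1% and 40.1% of the counts of the Mef2c samples, and 19.5%, 19.0% and 22.2% of those of the inputs (exact permutation p = 0.0571). Chromosome X regions held 1.41%, 1.69%, 1.81% and 1.90% of the Mef2c counts and 1.08%, 1.08% and 1.09% of the input counts (exact permutation p = 0.0571). Library 2 had the lowest of the Mef2c values in all 3 measures and still stood above each input.

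**Figure D3:**
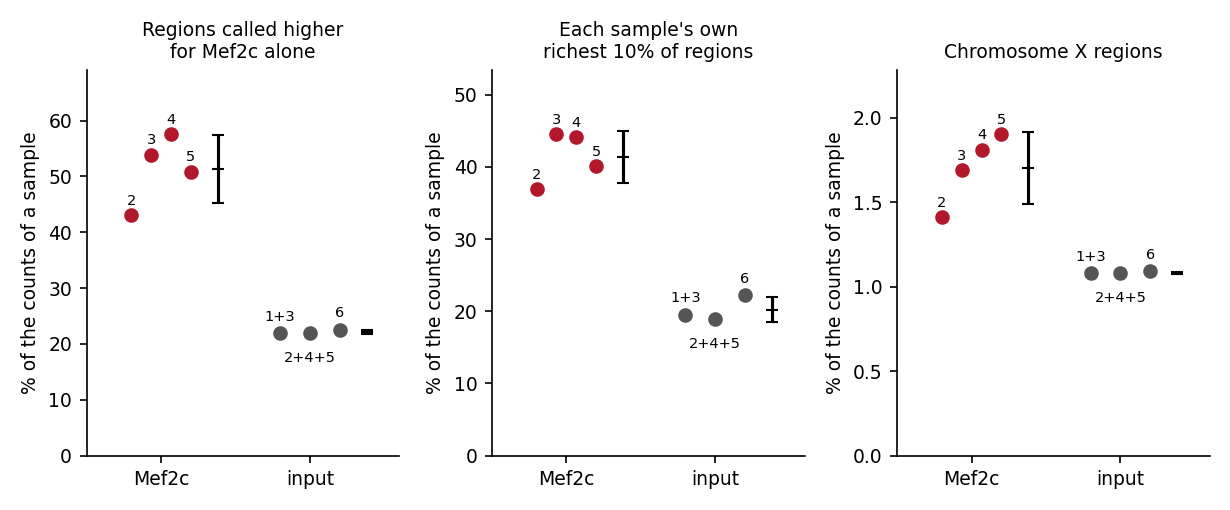
Percent of each sample's counts in the 6700 regions called higher for Mef2c alone, in the sample's own richest 10% of regions and in chromosome X regions, for 4 Mef2c and 3 input samples labelled by their libraries. Bars give the mean and SD, and the Mef2c points lie above the input points in each panel, at 43.1% to 57.5% against 21.9% to 22.5% in the first.

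Regions higher for Mef2c with its partners were often also higher when it was given alone. The single-factor comparison uses its own Mef2c libraries and its own inputs, so it shares no library with the comparison above. It called 6700 of 17470 tested regions higher (38.4%) and 6331 lower (36.2%). Of 8605 regions higher with all 3 factors and tested in both, 5779 (67.2%) were higher alone, where 39.1% of all 17024 regions tested in both were. With library totals in both comparisons the share was 48.1%, where 3776 of all 17470 regions tested for Mef2c alone were higher. These 5779 are 86.8% of the regions higher alone. Of the 7645 regions lower with all 3 factors only 2577 were tested in both, against 8605 of the 9672 higher ones. Of these 2577 regions 1925 (74.7%) were lower alone, against 35.4% of all. With no filter the share was 26.9%, where 5199 of all 30812 regions were lower alone. Each of the 10 higher regions of largest fold was also higher alone, as were the 5 of highest level, and 7 of 7 tested among the 10 lower ones were also lower alone.

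A smaller group went opposite ways in the 2 settings. At 975 regions (11.3% of the 8605) Mef2c was above input with all 3 factors, by a median log2 fold change of 1.42, and below input alone, by a median of -2.002. With no filter this group was 4.98% of the regions higher with all 3 factors, where 5199 of all 30812 regions were lower alone. The difference of the 2 enrichments, tested in 1 fit over both sets of samples, passed the threshold at 875 of the 975. Since the regions were picked for opposite calls in the same samples, that count restates the choice and is no separate support. At 123 regions the order was turned round, with medians of -1.23 with all 3 factors and 1.47 alone, and the difference passed at each of the 123. A further 1851 regions were higher with all 3 factors and not called alone, with medians of 1.78 and 0.27, and the difference passed at 164 of these.

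Over all regions the difference test called 2353 of 30390 regions stronger with all 3 factors (7.74%) and 3297 weaker (10.8%). With library totals these counts were 4375 and 1514, so the share called stronger went from 41.6% to 74.3% and which side is larger depends on the scaling. Without inputs 2, 4 and 5 the weaker side fell to 1586. Among the regions higher with all 3 factors, 1464 were stronger, 1142 weaker and 7066 not called in the difference test. These regions, and the 10 of largest fold among them, were picked on the same Mef2c and input samples, which can raise the count of stronger ones. One of the 10 regions of largest fold is among the stronger ones, chrX:70603870-70604185, with log2 fold changes of 4.55 with all 3 factors and 1.52 alone (difference 2.16, edgeR adjusted p = 0.0242).

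**Figure D4:**
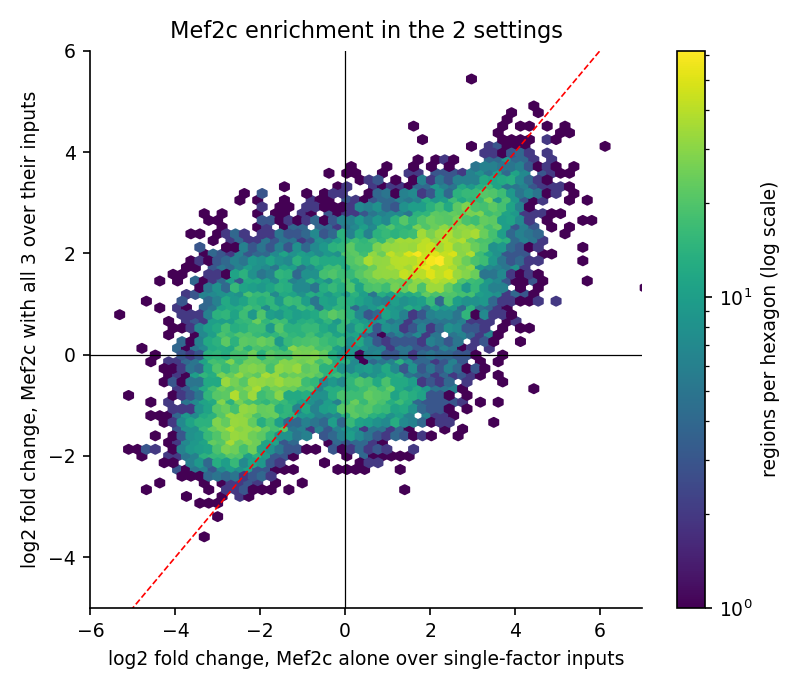
Log2 fold change of Mef2c alone over single-factor inputs (x axis) against that of Mef2c with all 3 factors over their inputs (y axis), with colour for the number of regions in a hexagon on a log scale and a dashed line of equality. A dense group is positive in both (5779 regions called in both), and the upper left quadrant holds the 975 regions called higher with all 3 factors and lower alone.

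Gata4 and Tbx5 in the same 3-factor cells were set beside Mef2c through the single-factor inputs, again with no library in common. Gata4 was higher at 1687 of 21126 tested regions (7.99%) and lower at 5.15%, and Tbx5 was higher at 4672 of 21115 (22.1%) and lower at 18.6%. Of the regions higher for Mef2c, 8.65% were higher for Gata4 (5.10% with library totals, 5.72% with DESeq2), where 7.99% of all regions tested in both were, and 15.1% were higher for Tbx5, where 21.7% of all were. The Tbx5 share of 15.1% was 7.97% with library totals, and the regions of higher Mef2c that were lower for Tbx5 went from 15.2% to 22.9%. Only 3300 of the 7645 regions lower for Mef2c were tested for Tbx5, against 7791 of the 9672 higher ones. Of these 3300, 50.1% were lower for Tbx5 (19.4% with no filter), where 19.0% of all 19907 tested in both were. The share of the 3300 that was higher for Tbx5 was 6.52% (13.7% with library totals, 3.01% with DESeq2). Regions where Mef2c was not called were higher for Tbx5 at 33.2%. The counts over all regions moved with these settings as well. For Gata4, library totals gave 998 higher regions and DESeq2 986. For Tbx5, library totals gave 2734 higher and 5468 lower, DESeq2 gave 3703 higher, and no filter gave 2920 lower of 30813. The 3 comparisons of Mef2c alone, Gata4 and Tbx5 share their inputs, so they are not set against each other.

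Mef2c differed between classes of regions formed by the other factors. It was higher at 47.8% of 757 regions where both Gata4 and Tbx5 were higher and lower at 1.06%, beside 39.4% and 15.5% of all 17547 regions tested for the 3 factors. Where Tbx5 alone of the other factors was higher (2997 regions), 25.3% were higher for Mef2c and 5.11% lower. Where only Gata4 was (709 regions), the values were 38.4% and 15.2%, and where neither was (13084), they were 42.2% and 18.7%.

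The Mef2c signal itself, compared with Mef2c given alone and without use of any input, followed these classes. Over all tested regions this comparison called 31.3% higher with all 3 factors and 28.8% lower. Over the 6909 regions that were higher for Mef2c over input and tested for the 3 factors, the shares were 39.9% and 27.7%. Those regions were picked on the same Mef2c libraries, which can raise the ratios in every class. Among the regions higher for Mef2c over input, the median log2 ratio of all 3 factors over alone was -0.04 at the 5518 regions with neither other factor (interquartile range -0.82 to 1.33). It was 0.41 at the 272 with Gata4 only, 1.47 at the 757 with Tbx5 only (0.35 to 2.81) and 1.67 at the 362 with both (0.57 to 2.79). Mef2c was called higher with all 3 factors at 34.1% of the first class, 39.3% of the second, 66.1% of the third and 74.0% of the last, and lower at 32.8%, 14.7%, 5.81% and 4.70%. With library totals the 4 medians became 0.28, 0.73, 1.80 and 1.99, so the sign of the first changes with the scaling. The difference of the enrichments over input, which shares the single-factor inputs with the comparisons that form the classes, had medians of -0.20, -0.07, 1.05 and 0.99 in the same order. It was called stronger with all 3 factors at 938 of 5518, 42 of 272, 268 of 757 and 109 of 362 regions, beside 1357 of all 6909. It was called weaker at 507, 16, 17 and 6 regions of the 4 classes, beside 546 of all. By this measure the last 2 classes do not keep their order. Mef2c and Tbx5 libraries of these cells carry the same replicate numbers, and the part of shared chromatin in this pattern was not tested.

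**Figure D5:**
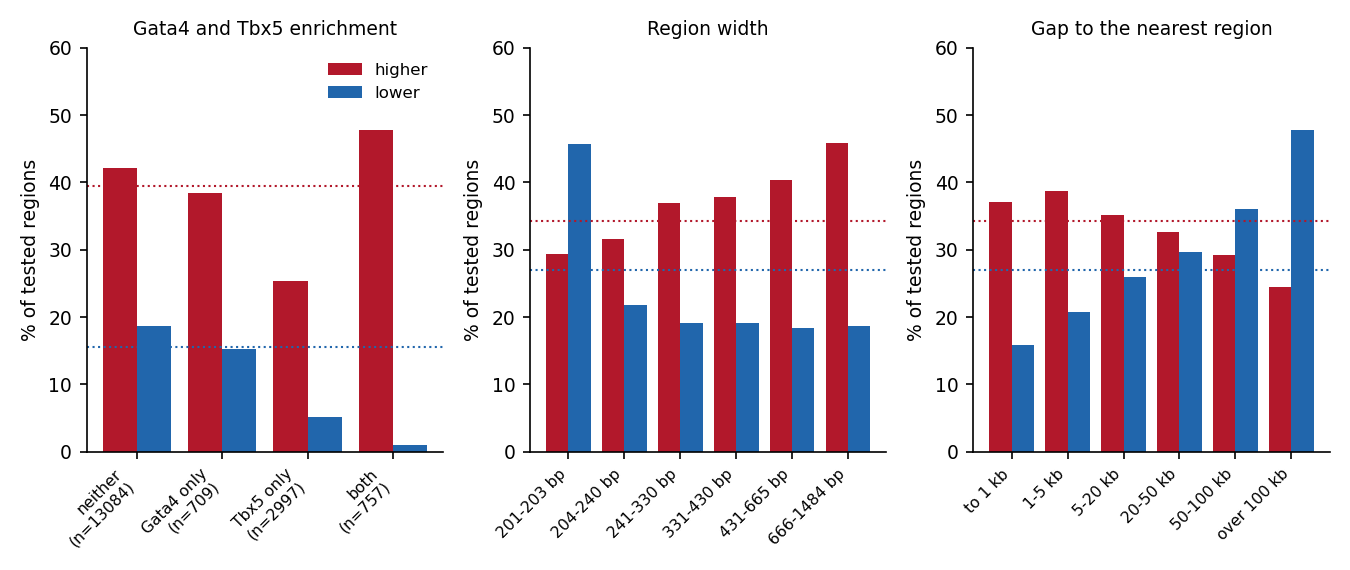
Percent of tested regions called higher (red) and lower (blue) for Mef2c over input, by enrichment of Gata4 and Tbx5, by width of the region and by the gap to the nearest other region, with dotted lines at the shares over all regions of a panel (39.4% and 15.5% in the first, 34.2% and 27.0% in the others). Lower calls are few where both other factors are enriched (1.06%) and most frequent in the narrowest and the most isolated regions (45.7% and 47.8%).

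Shares of calls went with the width and isolation of a region. In the class 201 to 203 bp wide, 29.3% of 7821 regions were higher and 45.7% lower. In the widest class, 666 to 1484 bp, 45.8% of 284 were higher and 18.7% lower. In a test against a log2 change of 1 (edgeR's glmTreat) the widest class had 23.9% higher and the narrowest 20.1%, so little of the difference in higher calls was left. Regions within 1000 bp of another were higher at 37.1% and lower at 15.9%, whereas those more than 100000 bp from any other were higher at 24.5% and lower at 47.8%. By the count density of the single-factor inputs, the share higher went from 29.0% in the lowest of 4 equal classes to 38.4% in the highest. How the regions were selected is not given in the sources used here, so these shares describe the table and not the genome.

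Chromosome X stood apart from the autosomes. Of its 611 regions 418 were deep enough to test, against 28307 of 30815 over all chromosomes. A region low in input can pass the filter through its Mef2c reads, and the part of this in the X share was not tested. Of the 418 tested regions 69.4% were higher and 7.18% lower, and their median log2 fold change was 1.84. On the autosomes 33.6% of 27889 regions were higher and 27.3% lower, with a median of -0.15. The share on the autosomes ran from 26.8% on chromosome 15 to 41.3% on chromosome 7, so no autosome came near it. In the cells with Mef2c alone the X share was 73.3% against 37.8% on autosomes. For Gata4 it was 10.2% against 7.96%, and for Tbx5 19.8% against 22.2%. With the 3 Mef2c libraries set against 1 input in the set of libraries 2, 4 and 5 the X share was 17.2%, where 2000 of all 28307 regions were called higher.

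Some higher regions lay in runs. Regions no more than 12.5 kb apart were joined into 21538 chains, 15621 of them of 1 region. In 278 chains 3 or more regions were higher. How many such chains the 34.2% of tested regions called higher would give by themselves was not tested. Chains of 2 or more regions held 53.8% of the higher regions and 49.4% of all tested ones. The chain with the most, chr11:102073196-102091600, spans 18405 bp, and its 8 regions were all higher, with log2 fold changes from 1.44 to 3.15. At chr11:102081186-102081533, the strongest of them, the Mef2c samples had 132, 152, 202 and 129 CPM and the inputs 17.0, 17.1 and 18.1 CPM. At its neighbour chr11:102080169-102080400 the values were 109, 171, 116 and 129 CPM against 21.6, 16.1 and 13.5 CPM, again with no overlap between the groups. Of the 5 regions of this chain tested for Mef2c alone, 3 were higher. Among all regions higher with all 3 factors and tested in both, 67.2% were.

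The inputs divide by their reads on chromosome Y, which were few. Inputs 1, 3 and 6 had 7, 12 and 7 reads (37.5 to 43.1 CPM of the library's total). Inputs 2, 4 and 5 had 0, 2 and 0 (0 to 10.3 CPM). Mef2c library 3 had 14 reads (11.75 CPM), close to the highest of the second set, and the other Mef2c libraries 0 to 3 (0 to 1.74 CPM). Library 3 was counted with inputs 1, 3 and 6, although its value was far below theirs. The inputs counted as 1 sample fall within these sets. Within libraries 2, 4 and 5 (3 Mef2c samples and 1 input sample) 9672 of 9672 higher regions and 7644 of 7645 lower regions kept their sign, with 2000 higher and 178 lower calls. Within libraries 1, 3 and 6 (1 Mef2c sample and 2 inputs) 9644 and 7645 kept it, with 8692 higher and 6285 lower calls, where the spread comes from the 2 inputs and the lone Mef2c sample is assumed to vary like them. The sets are subsets of the samples that made the calls, so signs kept are no separate support. With the set as a block, 8978 regions were higher and 5729 lower.

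No region was called between the 2 arms of inputs. Inputs of the 3-factor cells and of the single-factor cells were called different at 0 of 853 regions that passed the filter and 0 of 30815 without it in edgeR's test. The single-factor inputs held a median of 3 to 4 counts per region, with 1 library per factor. The test could therefore miss differences, and the lack of calls does not show the arms to be equal. At an unadjusted p under 0.05 edgeR found 43 (5.04%) and 1686 (5.47%), and DESeq2 29 and 470, with no adjusted call. With the single-factor inputs in place of their own, the Mef2c libraries were higher at 6749 regions and lower at 1999.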

How the data were processed

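The authors deposited raw counts of reads over fixed regions, in 1 table for the whole series and with no scaling. Per the submitters' processing notes, reads were checked with FastQC, aligned to mm9 with Bowtie2 2.2.4 and counted with featureCounts. The sources used here do not state aligner settings, how duplicates were treated or how regions were chosen, and reads elsewhere in the genome were not analysed here. Members, lists and tests were chosen with earlier results of these data known.

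Regions were filtered with filterByExpr (minimum count 10, minimum total 15), scaled by TMM and tested in edgeR 4.0.16 (R 4.3.3) with robust quasi-likelihood fits, two-sided. Alternatives with DESeq2 1.42.0, other scalings, inputs and left-out samples kept the tested regions, except the fit with no filter. Log2 CPM used a prior count of 2, and CPM are printed without one. Libraries whose counts agreed (chi-square p above 0.05) were summed, which joined inputs 1 and 3, inputs 2, 4 and 5, and Gata4 libraries 1 and 6. Depth ran from 165517 counts in an input to 2377616 in a Mef2c library.

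Named regions were called, above the median level, and without overlap between the groups: the 10 of largest fold in each direction, and the 5 higher ones of highest Mef2c level. In addition the 3 of highest level were taken from the 184 called regions in the top 1% by ratio of highest to lowest Mef2c sample. Further regions in chains were chosen after their values were seen. The procedures were tested on simulated data. No mm9 genome or annotation was used here, so gene lists, motifs and sequences were not analysed.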

Additional observations from a re-analysis of the deposited data

Results flagged for a closer look

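Among 34 groups of 4 to 10 samples examined, 2 held a sample far from the rest, where chance flags about 1 in 20 groups. Both were Mef2c library 2 at lower regions, with 32.3 CPM at chr18:25189675-25190096, where the other 3 Mef2c samples had 4.36 to 9.02 CPM, and with 29.4 CPM at chr6:117099106-117099583, where they had 6.76 to 7.40 CPM.

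The Mef2c enrichment over input differed between cells with all 3 factors and cells with Mef2c alone at 4 of the named regions, by edgeR's test of the difference. It was stronger with all 3 factors by 2.16 (log2) at chrX:70603870-70604185 and by 2.63 at chr9:94285355-94285745. It was weaker, with differences of -2.03 at chr18:39859731-39860060 and -2.24 at chr7:125393995-125394392. The last 3 of these positions are the ones chosen for their spread between Mef2c samples. The first was chosen for its large fold in the same Mef2c and input samples. Over all regions tested the difference was called stronger at 2353 and weaker at 3297.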

How the results depend on the processing

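Counts of called regions for Mef2c over input (17317 in all, 9672 higher, 7645 lower) moved by more than 1.5 times under these settings. Library totals gave 5832 higher and 14515 lower. Single-factor inputs in place of the inputs gave 8748 calls with 1999 lower. Libraries 2, 4 and 5 by themselves gave 2178 calls, 2000 higher and 178 lower, with 1 input sample assumed to vary like the other group. Thinning to the smallest sample gave 10774 calls, 5154 of them higher, and a test against a log2 change of 1 gave 8055, 6156 higher and 1899 lower, which these settings bring about by fewer reads and a higher bar. Leaving out 1 sample gave 8151 to 10099 higher and 3463 to 9785 lower regions, the lowest of these without inputs 2, 4 and 5 and the next, 4387, without inputs 1 and 3. With the 6 inputs as separate samples 9983 were higher and 10196 lower, and with no filter 9684 and 8731 of 30815.

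Total calls over the single-factor inputs ranged from 699 (without the Gata4 input) to 3739 for Gata4 on leaving out 1 sample, beside 2776, with 1002 without the Mef2c input, 1736 without the Tbx5 input and 1770 without Gata4 libraries 1 and 6. For Tbx5 they ranged from 5237 (without the Mef2c input) to 9107, beside 8600, with 5297 without the Gata4 input. Library totals gave 3776 regions higher for Mef2c alone (6700), 998 for Gata4 (1687) and 2734 for Tbx5 (4672), no filter gave 3351 for Gata4 and 7310 for Tbx5, and DESeq2 gave 986 for Gata4. Which of the stronger and weaker sides of the difference between settings is larger turned with library totals (4375 and 1514, from 2353 and 3297) and with no filter, where 58.4% were stronger. The cause was not tested. The share of counts in regions higher for Mef2c alone exceeded input by 29.2 percentage points, and by 4.42 over the 500 regions, which are fewer. For the named regions 620 of 644 alternative values kept their call, 24 lost it, none turned its sign, and 21 of these were at 2 of the regions of large spread.

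Replicate numbers 2 to 5 are shared by Mef2c and input libraries. Deviations of same-numbered libraries had r from -0.01 to 0.05, and 1 of 4 Mef2c libraries correlated best with its own number. No difference beyond sampling noise was detected among inputs 2, 4 and 5, so these values cannot show whether the libraries were paired. With the replicate number as a block 9644 regions were higher and 8727 lower, against 9615 and 8977 for the same libraries with no block. The difference between the 2 settings was not run with a block, since its groups share too few numbers. Depth limits the named lower regions, which rest on 4 to 23 reads in each Mef2c sample and 11 to 60 in each input sample.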
